A study of Saccharomyces cerevisiae with 6 samples.

Results

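The genes examined were 41 amino acid synthesis genes of budding yeast, of 7126 genes counted in the libraries. They were chosen by name and without a cut on any measured value, though with earlier results of these data known. They are the genes of the histidine, leucine, isoleucine-valine, lysine, arginine, tryptophan, aromatic and homoserine pathways together with MET6, ASN1 and the regulator GCN4. Each is annotated as 1 exon. The marker genes LEU2, HIS3 and LYS2 belong to the same pathways but are altered in the strains, so they were left out of the members and are given only as a check.

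Yeast makes its amino acids through pathways whose enzymes are encoded by unlinked genes. The transcription factor Gcn4 activates many of these genes together when amino acids run short, and its own amount is set mainly by translation of the GCN4 mRNA. The level of this mRNA is therefore not a measure of Gcn4 protein. Separate factors act on single pathways, among them Leu3 on leucine and branched-chain genes, Lys14 on lysine genes and the Arg80 and Arg81 proteins on arginine genes. Casein kinase 2 is a protein kinase with catalytic subunits encoded by CKA1 and CKA2. Spt6 is a histone chaperone that travels with RNA polymerase II and keeps nucleosomes in place over transcribed genes.

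Total RNA was sequenced from 2 libraries each of ck2ts, spt6-7SA and wild type (WT) cultures. The ck2ts strain carries a deletion of CKA1 marked with KanMX6 and the allele cka2D225N marked with NAT, besides everything listed for WT. The spt6-7SA strain lacks chromosomal SPT6 (spt6D::kanMX6) and lives on a centromeric URA3 plasmid, pcc11, with FLAG-spt6 7S-A. It also carries IWS1-13MYC::HIS3, his3D200, a ura3 deletion and bar1D::KanMX6, whose part in its differences from WT cannot be told apart from that of the SPT6 allele. The WT strain carries bar1D::NAT and, at ura3-52, the histone genes HHF1 and FLAG-tagged HHT1 under the PGAL1/10 promoter with URA3, an insert that ck2ts shares and for which spt6-7SA is not labelled. Every strain is labelled mat a, leu2D1, lys2-128d and lacking BAR1 in a background isogenic to S288C. All cultures grew in YPD, a rich medium, at 30 °C until the OD600 was 0.5, and all, WT included, then spent 2 h at 39 °C, so that no sample shows the genes without heat. The labels do not say whether the 2 libraries of a strain came from separate cultures, and the p-values then measure only the spread between these libraries. In RNA from whole cultures, fewer cells making a transcript and less of it in each cell cannot be told apart.

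Sense reads per library ran between 56307173 and 83375420, of which the 41 genes took 0.745% and 0.798% in ck2ts, 0.889% and 0.930% in spt6-7SA, and 0.829% and 0.907% in WT. The labels were checked first on the targeted genes. CKA1 had 202 and 100 reads in ck2ts, 3289 and 3858 reads in spt6-7SA, and 4970 and 3504 reads in WT, so it was low in both ck2ts libraries but not at 0. CKA2 in ck2ts had a log2 fold change of -0.80 (edgeR adjusted p = 0.000426), and SPT6 in spt6-7SA one of 0.35 (edgeR adjusted p = 0.0470). The same allele of LEU2, leu2D1, written with the D of a deletion, is listed for every strain. Yet LEU2 had 1 and 4 reads in ck2ts, 3161 and 3338 reads in spt6-7SA, and 3713 and 3193 reads in WT. At this leucine synthesis gene ck2ts thus stood apart from both other strains. The labels do not say why LEU2 reads are present in spt6-7SA and WT, or which strains hold the listed allele. HIS3 had 1981 and 1741 reads in ck2ts, 523 and 435 reads in spt6-7SA, and 3584 and 3149 reads in WT and was lowest in spt6-7SA. LYS2 did not pass the test against WT in either mutant (edgeR adjusted p = 0.179 in ck2ts and 0.392 in spt6-7SA). The share of LYS2 sense reads in the part counted at its 5' end was 12.6% and 9.90% in ck2ts, 39.5% and 33.2% in spt6-7SA, and 43.4% and 36.1% in WT, which put ck2ts below the other strains there. The edgeR test of the 3' against the 5' part called LYS2 in ck2ts against WT (log2 difference 2.35) and not in spt6-7SA. The summed level of 4 a-cell marker genes was 290.1 and 301 CPM in ck2ts, 757 and 702 CPM in spt6-7SA, and 486 and 383 CPM in WT, and that of 4 alpha-cell genes was 108 and 96.8 CPM in ck2ts, 73.5 and 67.7 CPM in spt6-7SA, and 43.0 and 39.8 CPM in WT. Each of the 8 mating genes was detected in every library, and the share of these differences in the results below was not tested.

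In ck2ts 8 of the 41 genes rose, 22 fell and 11 did not pass the test against WT, and in spt6-7SA 10 rose, 10 fell and 21 did not pass. Levels were compared on sense reads as counts per 1e6 reads (CPM), and the test was edgeR's quasi-likelihood test over all genes with Benjamini-Hochberg adjustment at 0.05. Among all 6778 genes tested, 32.5% rose and 32.3% fell in ck2ts, 64.8% together. In spt6-7SA 26.7% rose and 24.1% fell, 50.8% together. The median log2 fold change of the 41 genes was -0.32 in ck2ts and 0.01 in spt6-7SA, and that of all genes was 0.02 in both. Both comparisons use the same WT libraries, so the values of the mutants are given side by side and their likeness is not tested.

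The plot of fold changes by pathway sets the genes in order of their pathways. Against WT, ck2ts had falls without any rise in the histidine, tryptophan and aromatic groups, while the lysine group had 5 rises and no fall in spt6-7SA. By gene, LEU1, LYS1 and ARG4 rose in both mutants, and HIS1, ILV1, ILV5, CPA1, ARO2, ARO4 and HOM2 fell in both. LYS4, LYS20 and MET6 fell in ck2ts and rose in spt6-7SA, ILV6 rose in ck2ts and fell in spt6-7SA, and HIS4, HIS5, LEU4, ARG3, ARG8 and TRP5 passed in neither. When each library was left out in turn, 7 of the 8 rises and 16 of the 22 falls in ck2ts kept their calls every time, as did 7 of the 10 rises in spt6-7SA. Of the 10 falls in spt6-7SA, HIS1 was the one that kept its call every time. There the count of falls was 6 without WT replicate 1, 4 without WT replicate 2, 1 without spt6-7SA replicate 1 and 2 without spt6-7SA replicate 2. It was 4 when scaling used library sizes alone, a scaling that moved the median of all genes by 0.0982 on the log2 scale in spt6-7SA against WT and by 0.106 against ck2ts.

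**Figure D1:**
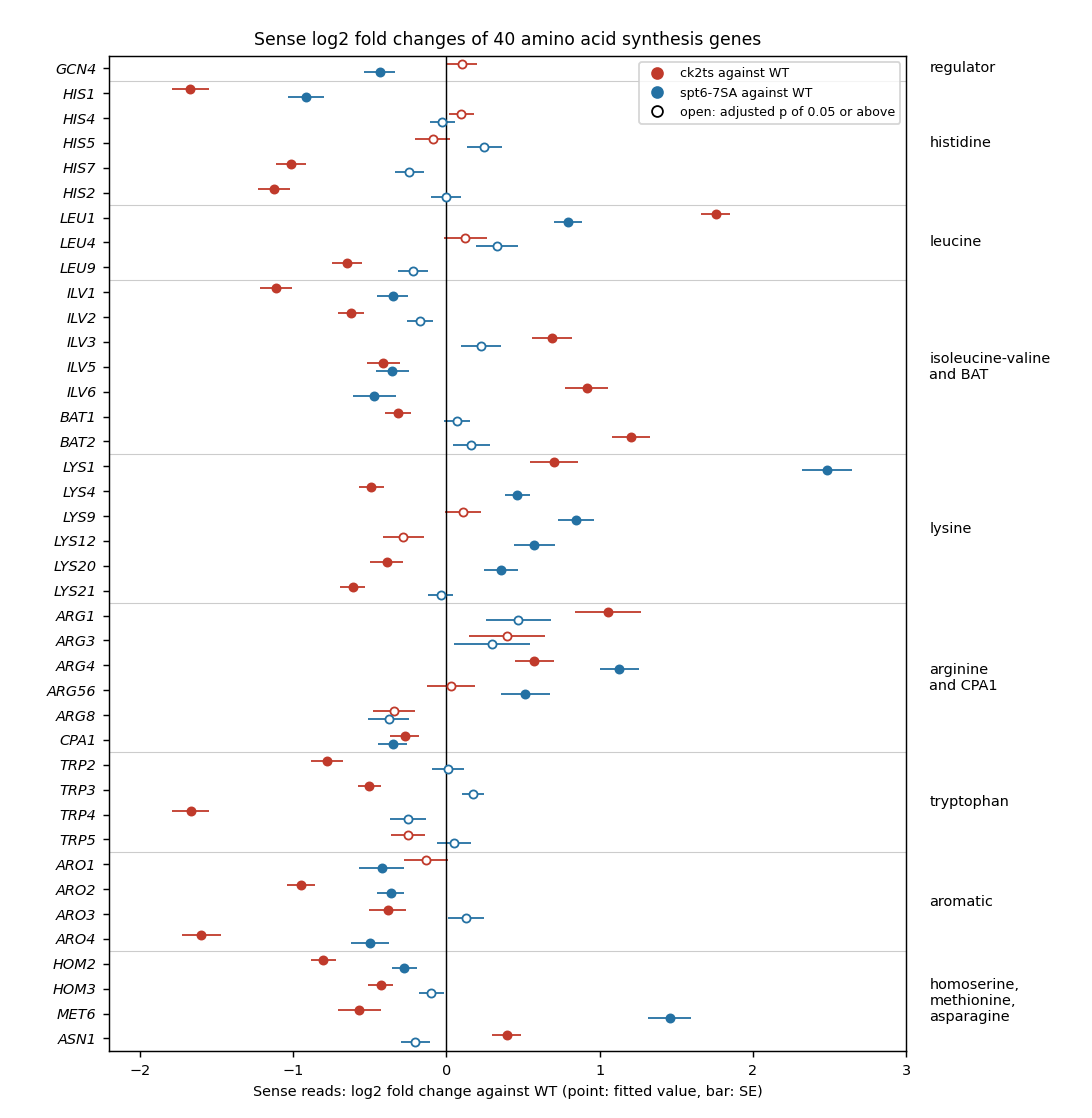
Log2 fold change of sense reads against WT for 40 of the 41 genes, grouped by pathway, in ck2ts (red) and spt6-7SA (blue). Points are fitted values, bars are standard errors, and open points have an adjusted p of 0.05 or above. The lysine genes LYS1, LYS4, LYS9, LYS12 and LYS20 lie right of 0 in spt6-7SA, and HIS1, TRP4 and ARO4 lie farthest left in ck2ts.

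Short sequences known as binding sites of the pathway factors were looked up in the 300 bases before each annotated start, on both strands, in the R64 genome. The Gcn4 core TGACTC, also the core of sites of the factor Bas1, occurred before 26 of the 41 genes (63.4%) and before 464 of 5979 protein-coding genes (7.76%), and the palindrome TGANTCA, which can overlap it, before 21 (51.2%) and 406 (6.79%). The Leu3 sequence, CCGG followed by any 2 bases and CCGG again, occurred before LEU1 and BAT1 and before 9 of all genes (0.151%). The Lys14 sequence TCCNNNGGA occurred before LEU9, LYS1, LYS9 and LYS12, and before 189 of all genes (3.16%). A match is a description of these letters and not evidence of binding. The sites below are every Leu3 and Lys14 match before the 41 genes, shown because these sequences are few, and 1 TGANTCA match each of HIS1, TRP4, ILV6, ARG4 and LYS1, as examples from different pathways. They are written 5′ to 3′ on the strand of the gene, with the match in capitals.
HIS1 (chrV:265956-265976, minus strand): ttccaagTGAGTCAcctctac
TRP4 (chrIV:1184590-1184610, plus strand): taaaaaaTGATTCAtgaccag
ILV6 (chrIII:105685-105705, minus strand): gttatcgTGACTCActttctt
ARG4 (chrVIII:141568-141588, minus strand): agatgaaTGACTCActttttg
LEU1 (chrVII:478853-478876, minus strand): gaaaattCCGGGACCGGcgaaatt
LEU9 (chrXV:522974-522996, plus strand): ggtcttcTCCTTAGGAtaatact
BAT1 (chrVIII:517378-517401, plus strand): gtgtttgCCGGTACCGGcctttaa
LYS1 (chrIX:420973-420993, minus strand): aagtcgaTGAGTCAaaaaaga
LYS1 (chrIX:420917-420939, minus strand): tttttttTCCAGCGGAatttgga
LYS9 (chrXIV:715598-715620, minus strand): tcgaaatTCCGTTGGAaaaattc
LYS9 (chrXIV:715536-715558, minus strand): gagaattTCCAATGGAattatca
LYS12 (chrIX:187799-187821, minus strand): actttttTCCCGTGGAaaaatat

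A match to the Gcn4 core went with no single direction. Of the 26 genes with TGACTC, 6 rose and 13 fell in ck2ts, with a median log2 fold change of -0.30. Of the 15 genes without it, 2 rose and 9 fell, with a median of -0.39. In spt6-7SA 5 of the 26 rose and 7 fell (median -0.06), and 5 of the 15 rose and 3 fell (median 0.13). HIS1 and ARG4 both carry the palindrome, and HIS1 fell while ARG4 rose in both mutants. MET6, ARO4, BAT2 and GCN4 had none of the 4 sequences in the 300 bases. The same held for HIS2, ILV2, LYS4, LYS20, LYS21, ARG3, TRP5, ARO2 and ARO3.

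GCN4 (YEL009C, chromosome V, 138918 to 139763, minus strand) was with ILV5 the most abundant of the 41 transcripts per length in WT, at 725 CPM per kb of coding sequence for GCN4 and 722 for ILV5, whose libraries overlapped. Its level was 638 and 676 CPM in ck2ts, 472 and 435 CPM in spt6-7SA, and 611 and 617 CPM in WT. Both spt6-7SA libraries were the lowest and did not overlap the others, whereas ck2ts was slightly above WT. GCN4 fell in spt6-7SA (log2 fold change -0.44, SE 0.10, edgeR adjusted p = 0.0105), a call not reached when either spt6-7SA library was left out (adjusted p = 0.0506 without spt6-7SA replicate 1 and 0.106 without spt6-7SA replicate 2). In ck2ts it did not pass (log2 fold change 0.10, SE 0.10, edgeR adjusted p = 0.428). ARG4, LYS1 and HIS4 were the lowest of the 41 genes in WT, with 24.2, 24.5 and 25.5 CPM per kb.

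In the histidine pathway 3 of the 5 genes fell in ck2ts and 1 in spt6-7SA, and none rose in either. HIS1 (YER055C, chromosome V, 264892 to 265785, minus strand), which encodes the ATP phosphoribosyltransferase of the first step, had 51.5 and 62.4 CPM in ck2ts, 90.0 and 102 CPM in spt6-7SA, and 180.2 and 182 CPM in WT. The groups did not overlap, with ck2ts lowest and spt6-7SA between ck2ts and WT. HIS1 was 3.18-fold lower in ck2ts than in WT (log2 fold change -1.67, SE 0.12, edgeR adjusted p = 2.58e-05) and 1.89-fold lower in spt6-7SA (log2 fold change -0.91, SE 0.12, edgeR adjusted p = 0.000958). HIS2 (YFR025C, chromosome VI, 203743 to 204750, minus strand), the histidinol phosphate phosphatase, had 16.5 and 19.5 CPM in ck2ts, 39.4 and 39.1 CPM in spt6-7SA, and 39.2 and 39.4 CPM in WT. It was low in ck2ts alone, 2.18-fold below WT (log2 fold change -1.12, SE 0.10, edgeR adjusted p = 6.82e-05), and its spt6-7SA libraries overlapped those of WT (edgeR adjusted p = 0.988). HIS7, which makes imidazole glycerol phosphate, had a log2 fold change of -1.01 (edgeR adjusted p = 7.87e-05) in ck2ts and -0.24 (edgeR adjusted p = 0.0636) in spt6-7SA. HIS4, an enzyme of several steps, and HIS5, the aminotransferase, had log2 fold changes between -0.09 and 0.25 and passed against WT in neither mutant. HIS6, an isomerase of the same pathway outside the 41 genes, fell in ck2ts (log2 fold change -1.40, edgeR adjusted p = 7.38e-05) and did not pass in spt6-7SA (log2 fold change 0.22, edgeR adjusted p = 0.174).

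The 3 leucine genes each took a different course in ck2ts, LEU1 rising, LEU9 falling and LEU4 not passing. LEU1 (YGL009C, chromosome VII, 476313 to 478652, minus strand), the isopropylmalate isomerase, had 246 and 278 CPM in ck2ts, 133 and 136 CPM in spt6-7SA, and 75.6 and 79.4 CPM in WT. Its libraries were highest in ck2ts, next in spt6-7SA and lowest in WT, with no overlap. The log2 fold change was 1.76 in ck2ts (SE 0.09, edgeR adjusted p = 1.45e-05) and 0.79 in spt6-7SA (SE 0.09, edgeR adjusted p = 0.000716), that is 1.73-fold in spt6-7SA. The paralogs LEU4 and LEU9 encode the isopropylmalate synthases of the committed step. LEU9 (YOR108W, chromosome XV, 523027 to 524841, plus strand) had 99.8 and 117 CPM in ck2ts, 142 and 149.9 CPM in spt6-7SA, and 170.4 and 169.6 CPM in WT, lowest in ck2ts without overlap (log2 fold change -0.65, SE 0.10, edgeR adjusted p = 0.000776). It did not pass in spt6-7SA (log2 fold change -0.22, edgeR adjusted p = 0.0991). LEU4 had a log2 fold change of 0.12 (edgeR adjusted p = 0.462) in ck2ts and 0.33 (edgeR adjusted p = 0.0838) in spt6-7SA. LEU2, which acts just after LEU1 in the pathway, was nearly absent from ck2ts and present in spt6-7SA and WT, as given above, and its part in the leucine results was not tested. Of 7 known Leu3 target genes, which include LEU1, LEU4, ILV2, ILV5, BAT1 and LEU2, 2 rose and 4 fell in ck2ts, while 2 rose and 1 fell in spt6-7SA. Among all genes tested, 64.8% were called in ck2ts and 50.8% in spt6-7SA. The falls in ck2ts were ILV2, ILV5, BAT1 and LEU2, the last a marker gene labelled as altered in every strain. The rises were LEU1 and GDH1, the NADP glutamate dehydrogenase, which had a log2 fold change of 1.95 (edgeR adjusted p = 8.79e-06) in ck2ts and 0.36 (edgeR adjusted p = 0.0104) in spt6-7SA. BAT1 shares the Leu3 match shown above with LEU1, and in ck2ts its log2 fold change was -0.31, against 1.76 for LEU1.

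All 7 isoleucine-valine genes passed in ck2ts, 3 upward and 4 downward, while in spt6-7SA 3 fell and none rose. ILV1 (YER086W, chromosome V, 328477 to 330207, plus strand), the threonine deaminase that opens the isoleucine branch, had 130.2 and 152 CPM in ck2ts, 233 and 245 CPM in spt6-7SA, and 292 and 317 CPM in WT. It was lowest in ck2ts, where it was 2.16-fold below WT (log2 fold change -1.11, SE 0.10, edgeR adjusted p = 8.03e-05), and spt6-7SA lay between without overlap (log2 fold change -0.35, SE 0.10, edgeR adjusted p = 0.0253). The smaller fall did not pass without some libraries (adjusted p = 0.117 without WT replicate 2, 0.141 without spt6-7SA replicate 1 and 0.0848 without spt6-7SA replicate 2). BAT2 (YJR148W, chromosome X, 705744 to 706874, plus strand), the cytosolic branched-chain aminotransferase, had 386 and 479.9 CPM in ck2ts, 199 and 221 CPM in spt6-7SA, and 185 and 191 CPM in WT. The ck2ts libraries were far above both other groups, and above WT by 2.30-fold (log2 fold change 1.20, SE 0.12, edgeR adjusted p = 0.000117). In spt6-7SA BAT2 did not pass (log2 fold change 0.16, edgeR adjusted p = 0.303). Its mitochondrial paralog BAT1 fell in ck2ts (log2 fold change -0.31, edgeR adjusted p = 0.0126; adjusted p = 0.0692 without WT replicate 1), and did not pass in spt6-7SA (log2 fold change 0.07, edgeR adjusted p = 0.522).

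The catalytic and regulatory subunits of acetolactate synthase, ILV2 and ILV6, moved apart in ck2ts. ILV6 (YCL009C, chromosome III, 104619 to 105548, minus strand), the regulatory subunit, had 171 and 135 CPM in ck2ts, 60.0 and 57.5 CPM in spt6-7SA, and 89.2 and 73.6 CPM in WT, highest in ck2ts and lowest in spt6-7SA without overlap. It rose in ck2ts (log2 fold change 0.91, SE 0.14, edgeR adjusted p = 0.000878) and fell in spt6-7SA (log2 fold change -0.47, SE 0.14, edgeR adjusted p = 0.0267). The fall of ILV6 did not pass without some libraries (adjusted p = 0.134 without WT replicate 1, 0.0849 without spt6-7SA replicate 1 and 0.116 without spt6-7SA replicate 2). ILV2 had a log2 fold change of -0.62 (edgeR adjusted p = 0.000496) in ck2ts and -0.17 (edgeR adjusted p = 0.133) in spt6-7SA. ILV3, the dihydroxyacid dehydratase, rose in ck2ts (log2 fold change 0.69, edgeR adjusted p = 0.00244) and did not pass in spt6-7SA (log2 fold change 0.22, edgeR adjusted p = 0.184). ILV5 (YLR355C, chromosome XII, 838066 to 839253, minus strand), the reductoisomerase, had 621 and 668 CPM in ck2ts, 686 and 657 CPM in spt6-7SA, and 877 and 837 CPM in WT, with WT above both mutants. It fell in ck2ts (log2 fold change -0.41, edgeR adjusted p = 0.0116; adjusted p = 0.0586 without WT replicate 1). It also fell in spt6-7SA (log2 fold change -0.35, edgeR adjusted p = 0.0288), where the call did not hold throughout (adjusted p = 0.116 without WT replicate 1, 0.0693 without WT replicate 2, 0.123 without spt6-7SA replicate 1 and 0.180 without spt6-7SA replicate 2).

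Genes of the lysine pathway rose in spt6-7SA, 5 of the 6 passing upward and none downward. In ck2ts LYS1 rose and 3 genes fell. The marker gene LYS2, also of this pathway, had a lower 5' share in ck2ts, as given above, and its part in the lysine results was not tested. LYS1 (YIR034C, chromosome IX, 419615 to 420736, minus strand), the saccharopine dehydrogenase of the last step, had 47.2 and 42.1 CPM in ck2ts, 156 and 151 CPM in spt6-7SA, and 22.9 and 32.0 CPM in WT. Both spt6-7SA libraries were well above ck2ts, which in turn lay above WT, without overlap. LYS1 was 5.59-fold higher in spt6-7SA than in WT (log2 fold change 2.48, SE 0.16, edgeR adjusted p = 0.000152) and 1.63-fold higher in ck2ts (log2 fold change 0.70, SE 0.16, edgeR adjusted p = 0.00594). LYS9 (YNR050C, chromosome XIV, 714048 to 715388, minus strand), the saccharopine reductase of the step before, had 82.2 and 98.9 CPM in ck2ts, 143 and 159.5 CPM in spt6-7SA, and 80.3 and 87.8 CPM in WT. It rose in spt6-7SA by 1.80-fold (log2 fold change 0.85, SE 0.12, edgeR adjusted p = 0.00126). Its ck2ts libraries overlapped the WT range (log2 fold change 0.11, edgeR adjusted p = 0.448). LYS1, LYS9 and LYS12 are the lysine genes with the Lys14 match shown above. LYS4, the homoaconitase, had a log2 fold change of 0.46 (edgeR adjusted p = 0.00320) in spt6-7SA and -0.49 (edgeR adjusted p = 0.00130) in ck2ts. LYS12, the homoisocitrate dehydrogenase, had a log2 fold change of 0.57 (edgeR adjusted p = 0.0104) in spt6-7SA and -0.28 (edgeR adjusted p = 0.102) in ck2ts. The rise of LYS12 did not pass without some libraries (adjusted p = 0.0721 without WT replicate 1 and 0.0612 without spt6-7SA replicate 2).

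The homocitrate synthases LYS20 and LYS21 open the lysine pathway and share sequence. Of the 50-base windows of their coding spans, 37.8% in LYS20 and 36.7% in LYS21 occurred elsewhere in the genome, so reads there cannot be assigned to 1 of the genes, whereas 38 of the 41 genes had no such window and ASN1 had 2.04%. LYS21 (YDL131W, chromosome IV, 227393 to 228715, plus strand) had 196 and 191 CPM in ck2ts, 294 and 282 CPM in spt6-7SA, and 289 and 302 CPM in WT, lowest in ck2ts (log2 fold change -0.61, SE 0.08, edgeR adjusted p = 0.000437) and overlapping WT in spt6-7SA (log2 fold change -0.04, edgeR adjusted p = 0.725). LYS20 rose in spt6-7SA (log2 fold change 0.36, edgeR adjusted p = 0.0290), a call that did not hold throughout (adjusted p = 0.136 without WT replicate 1, 0.0794 without WT replicate 2 and 0.205 without spt6-7SA replicate 1). In ck2ts it fell (log2 fold change -0.39, edgeR adjusted p = 0.0152), likewise not throughout (adjusted p = 0.0628 without WT replicate 2 and 0.0648 without ck2ts replicate 2).

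Of 6 genes of the arginine pathway, 2 rose and 1 fell in each mutant. ARG4 (YHR018C, chromosome VIII, 140011 to 141402, minus strand), the argininosuccinate lyase of the last step, had 44.8 and 55.3 CPM in ck2ts, 71.0 and 76.0 CPM in spt6-7SA, and 31.1 and 36.3 CPM in WT. The order was spt6-7SA above ck2ts above WT without overlap, with 2.18-fold in spt6-7SA (log2 fold change 1.13, SE 0.13, edgeR adjusted p = 0.000662) and 1.49-fold in ck2ts (log2 fold change 0.57, SE 0.13, edgeR adjusted p = 0.00529) over WT. ARG1 (YOL058W, chromosome XV, 219211 to 220473, plus strand), the argininosuccinate synthetase of the step before, had 266 and 299 CPM in ck2ts, 190.1 and 187 CPM in spt6-7SA, and 104 and 169 CPM in WT. Its WT libraries lay far apart, and it rose in ck2ts (log2 fold change 1.05, SE 0.21, edgeR adjusted p = 0.00466) but did not pass in spt6-7SA (log2 fold change 0.47, edgeR adjusted p = 0.109). ARG56, ARG8 and ARG3 act earlier, up to the formation of citrulline. ARG56, an enzyme of acetylglutamate processing, rose in spt6-7SA (log2 fold change 0.51, edgeR adjusted p = 0.0313; adjusted p = 0.105 without WT replicate 1, 0.117 without spt6-7SA replicate 1 and 0.0848 without spt6-7SA replicate 2). ARG8 and ARG3 passed in neither mutant. ARG8, the acetylornithine aminotransferase, had a log2 fold change of -0.34 (edgeR adjusted p = 0.0580) in ck2ts and -0.38 (edgeR adjusted p = 0.0505) in spt6-7SA. ARG3, the ornithine carbamoyltransferase, had a log2 fold change of 0.39 (edgeR adjusted p = 0.207) in ck2ts and 0.29 (edgeR adjusted p = 0.357) in spt6-7SA.

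CPA1, which acts in making the carbamoyl phosphate used for arginine, had a log2 fold change of -0.35 (edgeR adjusted p = 0.0180) in spt6-7SA and -0.27 (edgeR adjusted p = 0.0355) in ck2ts. Neither fall of CPA1 held throughout, with adjusted p = 0.0817 without WT replicate 2, 0.131 without spt6-7SA replicate 1 and 0.0944 without spt6-7SA replicate 2 in spt6-7SA. The values in ck2ts were adjusted p = 0.0672 without WT replicate 1, 0.141 without WT replicate 2, 0.0819 without ck2ts replicate 2, 0.0864 without spt6-7SA replicate 1 and 0.0860 without spt6-7SA replicate 2.

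The tryptophan group fell in ck2ts at 3 of 4 genes and was not called at any gene in spt6-7SA. That count of 0 came from edgeR, and no tryptophan gene had an unadjusted p under 0.05 or was called by DESeq2 there. TRP4 (YDR354W, chromosome IV, 1184747 to 1185889, plus strand), the anthranilate phosphoribosyltransferase, had 17.1 and 20.3 CPM in ck2ts, 46.8 and 52.9 CPM in spt6-7SA, and 56.1 and 62.6 CPM in WT. Its ck2ts libraries were far below the rest and 3.18-fold below WT (log2 fold change -1.67, SE 0.12, edgeR adjusted p = 2.73e-05). The difference in spt6-7SA did not pass (log2 fold change -0.25, edgeR adjusted p = 0.110). TRP2 (YER090W, chromosome V, 337949 to 339472, plus strand), a subunit of anthranilate synthase, had 73.9 and 86.9 CPM in ck2ts, 135 and 142 CPM in spt6-7SA, and 132 and 144 CPM in WT. It too was low in ck2ts alone (log2 fold change -0.78, SE 0.10, edgeR adjusted p = 0.000439). Its spt6-7SA libraries lay within the range of WT (log2 fold change 0.01, edgeR adjusted p = 0.956). TRP3, the other subunit, fell in ck2ts (log2 fold change -0.50, edgeR adjusted p = 0.000732), while in spt6-7SA it did not pass (log2 fold change 0.17, edgeR adjusted p = 0.0897). TRP5, the tryptophan synthase, passed in neither mutant, with a log2 fold change of -0.25 (edgeR adjusted p = 0.0868) in ck2ts and 0.05 (edgeR adjusted p = 0.740) in spt6-7SA.

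Of the 4 genes of the shared aromatic pathway, 3 fell in each mutant. ARO4 (YBR249C, chromosome II, 716882 to 717994, minus strand), a DAHP synthase that opens the pathway, had 111 and 139.7 CPM in ck2ts, 258 and 279 CPM in spt6-7SA, and 367 and 392 CPM in WT. WT was highest, spt6-7SA lower and ck2ts lowest without overlap, 3.03-fold below WT in ck2ts (log2 fold change -1.60, SE 0.13, edgeR adjusted p = 3.76e-05) and 1.41-fold below it in spt6-7SA (log2 fold change -0.50, SE 0.12, edgeR adjusted p = 0.0126; adjusted p = 0.0589 without WT replicate 2 and 0.0866 without spt6-7SA replicate 1). Its isoenzyme ARO3 fell in ck2ts (log2 fold change -0.38, edgeR adjusted p = 0.0240; adjusted p = 0.118 without WT replicate 2 and 0.103 without ck2ts replicate 1) and did not pass in spt6-7SA (log2 fold change 0.13, edgeR adjusted p = 0.401). ARO2 (YGL148W, chromosome VII, 226399 to 227529, plus strand), the chorismate synthase, had 190.4 and 199 CPM in ck2ts, 289 and 296 CPM in spt6-7SA, and 396 and 358 CPM in WT, in the same order of groups without overlap (log2 fold change -0.95, SE 0.09, edgeR adjusted p = 8.60e-05 in ck2ts and log2 fold change -0.36, SE 0.09, edgeR adjusted p = 0.0129 in spt6-7SA). The fall of ARO2 in spt6-7SA did not hold throughout (adjusted p = 0.0717 without WT replicate 1, 0.0935 without spt6-7SA replicate 1 and 0.0736 without spt6-7SA replicate 2). ARO1 (YDR127W, chromosome IV, 704484 to 709250, plus strand), the enzyme of the middle steps, had 436 and 575 CPM in ck2ts, 402 and 423 CPM in spt6-7SA, and 526 and 582 CPM in WT. Its ck2ts libraries were spread across the WT range (log2 fold change -0.13, edgeR adjusted p = 0.452). The spt6-7SA libraries were below WT (log2 fold change -0.42, SE 0.15, edgeR adjusted p = 0.0435), a call lost without any of 4 libraries (adjusted p = 0.0759 without WT replicate 1, 0.170 without WT replicate 2, 0.188 without spt6-7SA replicate 1 and 0.127 without spt6-7SA replicate 2). ARO4 lies beside HIS7 on chromosome II on the same strand with 416 bases between them, and both fell in ck2ts.

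Of the homoserine, methionine and asparagine genes, MET6 showed opposite changes in the mutants. MET6 (YER091C, chromosome V, 339864 to 342167, minus strand), the methionine synthase, had 61.1 and 50.3 CPM in ck2ts, 235 and 219 CPM in spt6-7SA, and 73.4 and 92.2 CPM in WT. The spt6-7SA libraries were far above WT, by 2.74-fold (log2 fold change 1.46, SE 0.14, edgeR adjusted p = 0.000406). The ck2ts libraries were below WT (log2 fold change -0.57, SE 0.14, edgeR adjusted p = 0.00872). HOM2 (YDR158W, chromosome IV, 770357 to 771454, plus strand), the aspartate semialdehyde dehydrogenase, had 102 and 107 CPM in ck2ts, 154 and 146 CPM in spt6-7SA, and 184 and 179 CPM in WT. It was lowest in ck2ts (log2 fold change -0.80, SE 0.08, edgeR adjusted p = 0.000110). The smaller fall of HOM2 in spt6-7SA (log2 fold change -0.27, SE 0.08, edgeR adjusted p = 0.0250) was lost without any of 4 libraries (adjusted p = 0.0913 without WT replicate 1, 0.0658 without WT replicate 2, 0.0902 without spt6-7SA replicate 1 and 0.171 without spt6-7SA replicate 2). HOM3, the aspartate kinase, fell in ck2ts (log2 fold change -0.43, edgeR adjusted p = 0.00286) and did not pass in spt6-7SA (log2 fold change -0.10, edgeR adjusted p = 0.357). ASN1, an asparagine synthetase, rose in ck2ts (log2 fold change 0.39, edgeR adjusted p = 0.00735; adjusted p = 0.0527 without WT replicate 1) and did not pass in spt6-7SA (log2 fold change -0.20, edgeR adjusted p = 0.107).

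**Figure D2:**
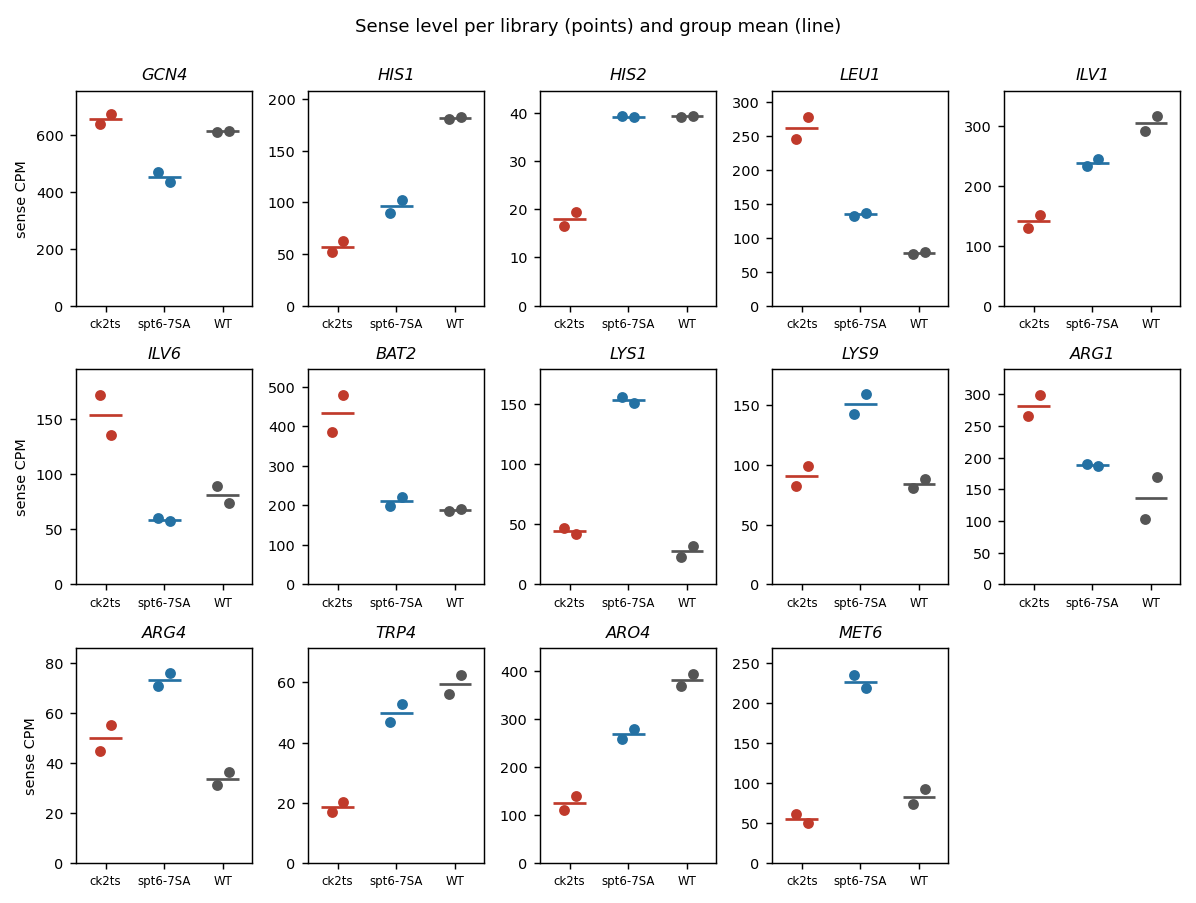
Sense level in CPM of 14 of the genes in each library, with ck2ts at the left, spt6-7SA in the middle and WT at the right of each panel. Points are libraries and lines are group means. LYS1 and MET6 are highest in spt6-7SA, LEU1 and BAT2 in ck2ts, and HIS1, TRP4 and ARO4 are lowest in ck2ts.

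Levels were also summed over the genes of each pathway. The 6 lysine genes summed to 729 and 733 CPM in ck2ts, 1319 and 1289 CPM in spt6-7SA, and 903 and 963 CPM in WT, so spt6-7SA lay above and ck2ts below WT. The 5 histidine genes summed to 224 and 237 CPM in ck2ts, 306 and 341 CPM in spt6-7SA, and 406 and 409 CPM in WT, and the 4 aromatic genes to 844 and 1045 CPM in ck2ts, 1110.4 and 1177 CPM in spt6-7SA, and 1436 and 1495 CPM in WT. In both groups WT was highest, spt6-7SA lower and ck2ts lowest, without overlap. The 7 isoleucine-valine genes summed to 2095 and 2323 CPM in ck2ts, 2029.6 and 2043 CPM in spt6-7SA, and 2292 and 2269 CPM in WT, with WT inside the range of ck2ts. The tryptophan sum was 427 and 473 CPM in ck2ts, 625 and 662 CPM in spt6-7SA, and 592 and 666 CPM in WT, low in ck2ts and with spt6-7SA inside the range of WT. All 41 genes together summed to 7567 and 8286 CPM in ck2ts, 8598 and 8753 CPM in spt6-7SA, and 8615 and 9106 CPM in WT. These sums are descriptions and were not tested.

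**Figure D3:**
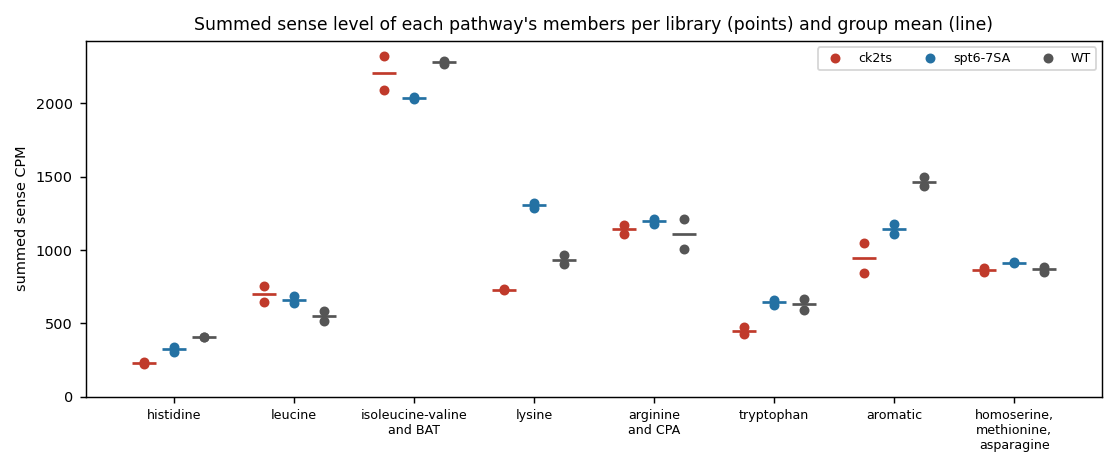
Summed sense level in CPM of the genes of each pathway in each library, with ck2ts at the left, spt6-7SA in the middle and WT at the right. Points are libraries and lines are group means. The lysine sum is highest in spt6-7SA, and the histidine and aromatic sums are lowest in ck2ts.

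Set directly against each other, 26 of the 41 genes were higher in spt6-7SA than in ck2ts, 6 were lower and 9 did not pass. Among all genes 27.7% were higher and 24.7% lower, 52.4% together, and the median log2 difference was 0.48 over the 41 genes and 0.02 over all genes. All 6 lysine genes, 4 of 5 histidine genes and 3 of 4 genes each of the tryptophan, aromatic and homoserine groups were higher in spt6-7SA. Of the 26 higher genes, HIS5, ARO3, HOM3, LEU9, BAT1, ARG4 and ARG56 did not keep their calls throughout when single libraries were left out. HIS5 was near the threshold (log2 fold change 0.33, edgeR adjusted p = 0.0414) and did not pass with only the 2 mutants in the fit (edgeR adjusted p = 0.0644). Its log2 fold change was 0.18 without spt6-7SA replicate 2. MET6 differed most, 4.07-fold (log2 fold change 2.03, SE 0.14, edgeR adjusted p = 7.88e-05), then LYS1, 3.44-fold (log2 fold change 1.78, SE 0.16, edgeR adjusted p = 0.000188), and TRP4, 2.67-fold (log2 fold change 1.42, SE 0.12, edgeR adjusted p = 0.000143). The 6 genes lower in spt6-7SA were ILV6 (log2 fold change -1.38, edgeR adjusted p = 0.000272), BAT2 (log2 fold change -1.04, edgeR adjusted p = 0.000448), LEU1 (log2 fold change -0.96, edgeR adjusted p = 0.000204), ASN1 (log2 fold change -0.59, edgeR adjusted p = 0.00159), GCN4 (log2 fold change -0.53, edgeR adjusted p = 0.00397) and ILV3 (log2 fold change -0.46, edgeR adjusted p = 0.0199). The difference in GCN4 did not pass without spt6-7SA replicate 2 (adjusted p = 0.0538). That in ILV3 did not pass without 3 of the libraries (adjusted p = 0.0716 without ck2ts replicate 2, 0.124 without spt6-7SA replicate 1 and 0.0621 without spt6-7SA replicate 2).

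On the opposite strand, antisense reads rose over most of the genes tested in ck2ts and over fewer in spt6-7SA. They could be tested at 35 of the 41 genes, since LEU4, LEU9, ARG56, TRP2 and TRP4 overlap a gene on the other strand and ARG3 had too few reads. In ck2ts 22 of the 35 rose, 2 fell and 11 did not pass, where 50% of all genes tested rose and 12% fell, 62% together. In spt6-7SA 12 rose, 5 fell and 18 did not pass, where 31.8% of all genes rose and 9.52% fell, 41.4% together. The median log2 fold change over the 35 genes was 1.45 in ck2ts and 0.70 in spt6-7SA, against 0.72 and 0.33 over all genes. Set directly against ck2ts, 2 of the 35 genes were higher in spt6-7SA and 18 were lower, where 13.8% of all genes were higher and 34.3% lower, 48% together. When each library was left out in turn, 19 of the 22 rises in ck2ts and 7 of the 12 in spt6-7SA kept their calls every time, as did the falls of HIS7 in ck2ts and LYS1 in spt6-7SA.

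The largest rises were on genes with few antisense reads in WT. BAT2 had 194 and 64 reads in ck2ts, 37 and 34 reads in spt6-7SA, and 5 and 7 reads in WT on the antisense strand. Every mutant library was above both WT libraries, and the ck2ts libraries differed widely between themselves. The rise of BAT2 was 23.5-fold in ck2ts (log2 fold change 4.56, SE 0.51, edgeR adjusted p = 2.06e-06) and 5.91-fold in spt6-7SA (log2 fold change 2.56, SE 0.56, edgeR adjusted p = 0.00210). MET6 had 314 and 172 reads in ck2ts, 119 and 127 reads in spt6-7SA, and 26 and 15 reads in WT antisense to it, highest in ck2ts and lowest in WT without overlap, with 13.6-fold in ck2ts (log2 fold change 3.76, SE 0.29, edgeR adjusted p = 5.70e-08) and 6.16-fold in spt6-7SA (log2 fold change 2.62, SE 0.30, edgeR adjusted p = 7.35e-06). TRP2 lies on the strand antisense to MET6 and points toward it, with 391 bases between the genes.

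ILV1 and HIS1 had antisense rises while their sense reads fell. ILV1 had 725 and 481 reads in ck2ts, 125 and 114 reads in spt6-7SA, and 56 and 48 reads in WT antisense, with ck2ts far above the rest and spt6-7SA above WT (log2 fold change 3.73, SE 0.21, edgeR adjusted p = 3.36e-09 in ck2ts and log2 fold change 1.23, SE 0.22, edgeR adjusted p = 0.000360 in spt6-7SA). HIS1 had 955 and 468 reads in ck2ts, 169 and 160 reads in spt6-7SA, and 112 and 77 reads in WT, in the same order of groups (log2 fold change 3.10, SE 0.24, edgeR adjusted p = 5.01e-08 in ck2ts and log2 fold change 0.84, SE 0.24, edgeR adjusted p = 0.0108 in spt6-7SA). The rise of HIS1 in spt6-7SA did not pass without spt6-7SA replicate 1 (adjusted p = 0.0530). The antisense reads of HIS1 per 1000 of its sense reads were 287 and 138 in ck2ts, 28.3 and 22.9 in spt6-7SA, and 7.75 and 7.28 in WT, so ck2ts stood far above the others on this ratio. HIS2, whose sense reads fell in ck2ts, had 222 and 225 reads in ck2ts, 152 and 160 reads in spt6-7SA, and 60 and 39 reads in WT, above WT in all mutant libraries (log2 fold change 2.41, SE 0.22, edgeR adjusted p = 3.47e-07 in ck2ts and log2 fold change 1.70, SE 0.23, edgeR adjusted p = 3.38e-05 in spt6-7SA).

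Antisense reads of ILV3, TRP5 and HIS5 rose in ck2ts and did not pass in spt6-7SA. ILV3 had 121 and 62 reads in ck2ts, 13 and 22 reads in spt6-7SA, and 12 and 14 reads in WT, high in ck2ts alone (log2 fold change 2.98, SE 0.41, edgeR adjusted p = 1.49e-05 in ck2ts and log2 fold change 0.44, edgeR adjusted p = 0.485 in spt6-7SA). TRP5 had 148 and 86 reads in ck2ts, 27 and 35 reads in spt6-7SA, and 25 and 12 reads in WT, likewise high in ck2ts (log2 fold change 2.87, SE 0.34, edgeR adjusted p = 3.94e-06 in ck2ts and log2 fold change 0.79, edgeR adjusted p = 0.106 in spt6-7SA). HIS5 had 79 and 83 reads in ck2ts, 18 and 20 reads in spt6-7SA, and 33 and 17 reads in WT (log2 fold change 1.94, edgeR adjusted p = 0.000119 in ck2ts and log2 fold change -0.34, edgeR adjusted p = 0.501 in spt6-7SA). Its unscaled reads in spt6-7SA overlapped WT. The scaled levels, 0.2708 and 0.2932 CPM in spt6-7SA and 0.4112 and 0.2933 CPM in WT, nearly met but did not overlap.

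Antisense reads of LEU1, HIS4 and ILV6 rose in both mutants, and none of the 3 was called lower in spt6-7SA than in ck2ts. LEU1 had 69 and 33 reads in ck2ts, 51 and 60 reads in spt6-7SA, and 8 and 9 reads in WT, low in WT and without order between the mutants (log2 fold change 2.71, SE 0.43, edgeR adjusted p = 0.000162 in spt6-7SA and log2 fold change 2.75, SE 0.43, edgeR adjusted p = 5.93e-05 in ck2ts). HIS4 had 157 and 92 reads in ck2ts, 172 and 187 reads in spt6-7SA, and 59 and 33 reads in WT, again low in WT (log2 fold change 2.01, SE 0.26, edgeR adjusted p = 2.56e-05 in spt6-7SA and log2 fold change 1.65, edgeR adjusted p = 6.74e-05 in ck2ts), while its sense reads passed in neither mutant. ILV6 had 480 and 359 reads in ck2ts, 948 and 886 reads in spt6-7SA, and 392 and 300 reads in WT, highest in spt6-7SA, by 2.71-fold over WT (log2 fold change 1.44, SE 0.15, edgeR adjusted p = 3.13e-06). In ck2ts the rise of ILV6 was small (log2 fold change 0.48, edgeR adjusted p = 0.0107), did not hold throughout (adjusted p = 0.0850 without WT replicate 1 and 0.0506 without ck2ts replicate 1) and became a log2 fold change of -0.15 when antisense counts were scaled by their own TMM factors.

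LYS1 and ARO1 changed in opposite directions in the mutants on this strand. LYS1 had 315 and 263 reads in ck2ts, 45 and 57 reads in spt6-7SA, and 124 and 118 reads in WT antisense, with every ck2ts library above and every spt6-7SA library below WT. It rose in ck2ts by 2.73-fold (log2 fold change 1.45, SE 0.21, edgeR adjusted p = 2.62e-05) and fell in spt6-7SA (log2 fold change -1.23, SE 0.23, edgeR adjusted p = 0.000702), where its sense rise was the largest of the 41 genes. Between the mutants spt6-7SA was 6.41-fold lower (log2 fold change -2.68, SE 0.23, edgeR adjusted p = 3.51e-07). ARO1 had 200 and 97 reads in ck2ts, 32 and 42 reads in spt6-7SA, and 77 and 60 reads in WT, high in ck2ts (log2 fold change 1.30, edgeR adjusted p = 0.00117) and lowest in spt6-7SA, a fall that did not hold throughout (log2 fold change -0.86, edgeR adjusted p = 0.0443; adjusted p = 0.0907 without WT replicate 1, 0.117 without WT replicate 2, 0.251 without spt6-7SA replicate 1 and 0.0897 without spt6-7SA replicate 2). GCN4 antisense reads were few, 33 and 25 in ck2ts, 9 and 6 in spt6-7SA, and 25 and 17 in WT. They also fell in spt6-7SA (log2 fold change -1.43, edgeR adjusted p = 0.0271), a call that DESeq2 did not make (DESeq2 adjusted p = 0.0990). The call did not hold throughout. The log2 fold change was -1.39 without WT replicate 1, -1.76 without spt6-7SA replicate 1 and -1.15 without spt6-7SA replicate 2. In ck2ts GCN4 antisense reads did not pass (log2 fold change 0.68, edgeR adjusted p = 0.157). ARG1 and HIS7, with the highest antisense levels of the tested genes in WT at 13.2 and 10.9 CPM for ARG1 and 12.2 and 10.8 CPM for HIS7, fell in ck2ts (log2 fold change -0.40, edgeR adjusted p = 0.0297 for ARG1 and log2 fold change -0.77, edgeR adjusted p = 0.000831 for HIS7). The fall of ARG1 did not hold throughout (adjusted p = 0.272 without WT replicate 1 and 0.118 without ck2ts replicate 2).

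**Figure D4:**
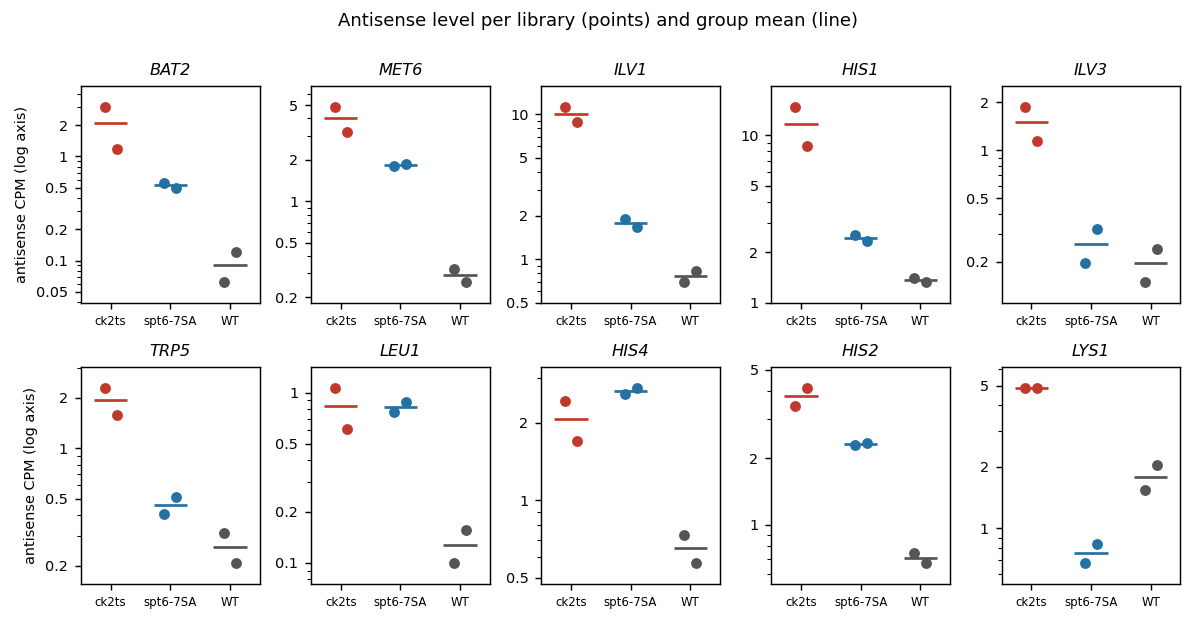
Antisense level in CPM, on a log axis, of 10 of the genes in each library, with ck2ts at the left, spt6-7SA in the middle and WT at the right of each panel. Points are libraries and lines are group means. WT is lowest in each panel except that of LYS1, where spt6-7SA is lowest, and the ILV3 panel, where WT overlaps spt6-7SA.

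Antisense and sense reads of the same gene changed unequally at most of these genes in ck2ts. The test was the interaction of strand and strain in edgeR, which asks whether the log2 fold change differs between strands. In ck2ts the antisense change lay above the sense change at 25 of the 35 genes and below it at 1, ARG1, where 47% of all genes lay above and 14.4% below, 61.4% together. In spt6-7SA it lay above at 12 and below at 2, LYS1 among them, where 28.7% of all genes lay above and 12.3% below, 41% together. The excess of the antisense over the sense change was largest at ILV1 in ck2ts, 28.4-fold (log2 difference 4.83, SE 0.38, edgeR adjusted p = 2.38e-08), then at HIS1 (log2 difference 4.73, SE 0.36, edgeR adjusted p = 1.74e-08), MET6 (log2 difference 4.29, SE 0.35, edgeR adjusted p = 3.95e-08) and HIS2 (log2 difference 3.53, SE 0.25, edgeR adjusted p = 9.36e-09). At LEU1, where both strands rose in ck2ts, the difference between strands did not pass there (log2 difference 0.97, edgeR adjusted p = 0.0898). In spt6-7SA LYS1 had the largest difference of the opposite sign, the antisense change lying below the sense change by 13.3-fold (log2 difference -3.73, SE 0.29, edgeR adjusted p = 6.11e-08). In ck2ts LYS1 differed little (log2 difference 0.73, edgeR adjusted p = 0.0252; adjusted p = 0.0803 without WT replicate 1 and 0.107 without WT replicate 2). ARG1 had the reverse sign (log2 difference -1.49, edgeR adjusted p = 0.00214; adjusted p = 0.0556 without WT replicate 1). All 6 lysine genes and all 4 aromatic genes passed upward in ck2ts, against 4 of 5 histidine genes and 4 of 7 isoleucine-valine genes. When each library was left out in turn, 19 of the 25 genes above in ck2ts kept their calls every time, and of the lysine and aromatic genes LYS4, LYS9, ARO3 and ARO4 did. LYS20 was near the threshold with all libraries (edgeR adjusted p = 0.0476) and did not pass when any of 5 libraries was left out. Leaving out either WT library left 3 of the 6 lysine genes passing upward. In spt6-7SA 5 of the 12 genes above and 1 of the 2 below, LYS1, kept their calls every time.

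**Figure D5:**
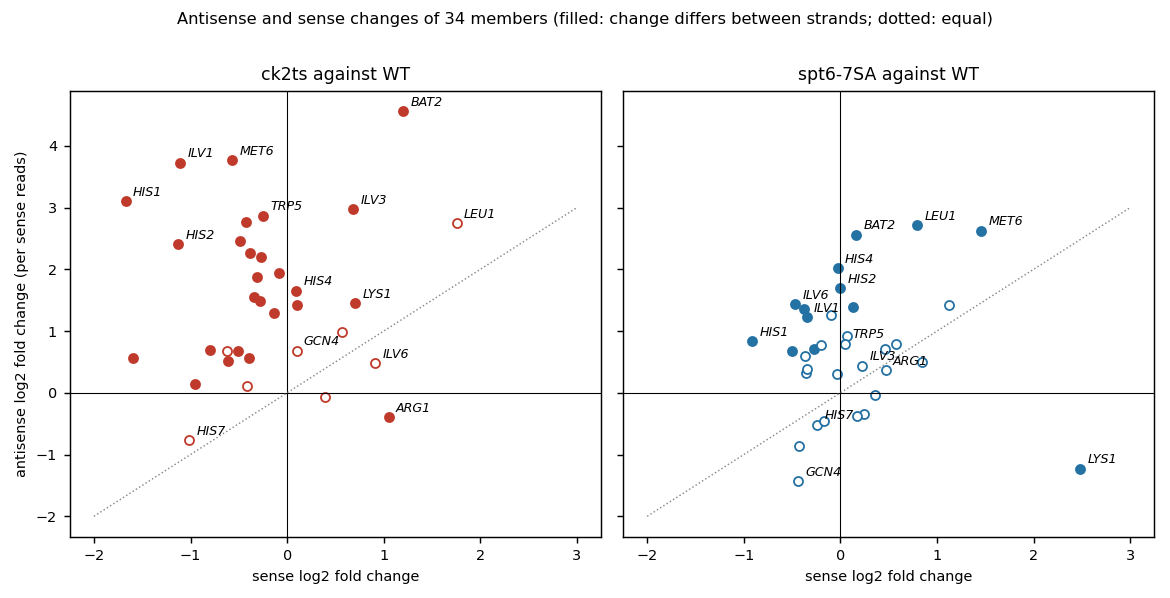
Log2 fold change of antisense reads (vertical axis) against that of sense reads (horizontal axis) for 34 of the 35 genes tested on both strands, in ck2ts and in spt6-7SA against WT. Filled points are genes whose antisense and sense changes differ at an adjusted p under 0.05, and the dotted line marks equal changes. Most filled points of ck2ts lie above the line, and LYS1 in spt6-7SA lies far below it.

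Without a replicate block, no change in the balance of sense reads between the 3' and 5' parts of the genes was called. Of the 38 members of at least 1000 bases with at least 20 reads per part on average, edgeR called 0 in either mutant, where 3.04% of all genes tested were called in ck2ts and 0.835% in spt6-7SA. At an unadjusted p under 0.05 there was 1 gene in ck2ts and there were 3 genes in spt6-7SA, and DESeq2 was not run on these parts. A fit with replicate number as a block called 4 of the 38 genes in each mutant, 3 upward and 1 downward, so the count of 0 depends on that choice. HIS1, ILV6 and GCN4 are shorter than 1000 bases and were not tested. Each part holds a small share of a gene's reads, between 2.16% and 22.2% for the 5' part over the 41 genes and all libraries.

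The pathway steps and regulators outside the 41 genes moved as follows. Of 35 other amino acid synthesis genes, 8 rose and 18 fell in ck2ts (74.3% called), while 10 rose and 6 fell in spt6-7SA (45.7% called). The shares over all genes tested were 32.5% rising and 32.3% falling in ck2ts, 64.8% together. In spt6-7SA they were 26.7% and 24.1%, 50.8% together. Among 13 genes of threonine, methionine and sulfur assimilation, 5 rose and 5 fell in ck2ts (76.9% called), and 7 rose and 2 fell in spt6-7SA (69.2% called). MET17, the homocysteine synthase that supplies the substrate of Met6, rose in spt6-7SA (log2 fold change 1.14, edgeR adjusted p = 0.000154) and fell in ck2ts (log2 fold change -0.38, edgeR adjusted p = 0.00377). MET14, the adenylylsulfate kinase, rose in both (log2 fold change 1.00, edgeR adjusted p = 0.000162 in ck2ts and log2 fold change 0.99, edgeR adjusted p = 0.000621 in spt6-7SA), as did MET5, a sulfite reductase subunit (log2 fold change 0.92, edgeR adjusted p = 8.81e-05 in ck2ts and log2 fold change 0.65, edgeR adjusted p = 0.00117 in spt6-7SA). All 3 proline synthesis genes fell in ck2ts, led by PRO1, the glutamate kinase (log2 fold change -1.03, edgeR adjusted p = 5.88e-05). PRO2, the next enzyme, fell most in spt6-7SA (log2 fold change -1.79, edgeR adjusted p = 0.000143). Of 6 further aromatic genes, 4 fell in ck2ts, among them ARO7, the chorismate mutase (log2 fold change -1.23, edgeR adjusted p = 3.15e-05), and PHA2, the prephenate dehydratase (log2 fold change -1.06, edgeR adjusted p = 5.81e-05).

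Among 8 genes that control translation of GCN4, 1 rose and 5 fell in ck2ts (75% called), and 0 rose and 2 fell in spt6-7SA (25% called). Over all genes tested, 64.8% were called in ck2ts and 50.8% in spt6-7SA. GCN2, the kinase that senses uncharged tRNA, was the riser in ck2ts (log2 fold change 0.31, edgeR adjusted p = 0.0125) and did not pass in spt6-7SA (log2 fold change 0.06, edgeR adjusted p = 0.592). The falls in ck2ts included GCD7 (log2 fold change -0.86, edgeR adjusted p = 0.000129) and GCN3 (log2 fold change -0.90, edgeR adjusted p = 0.000133), subunits of the initiation factor eIF2B. In spt6-7SA GCN20 fell (log2 fold change -0.47, edgeR adjusted p = 0.00420), as did GCD1 (log2 fold change -0.27, edgeR adjusted p = 0.0431). A further list held 8 regulators of these pathways, LEU3, LYS14, BAS1, PHO2, ARG80, ARG81, ARG82 and MCM1, not all of which act on a single pathway. Of these 8 genes, 1 rose and 3 fell in ck2ts (50% called) and 1 rose and 1 fell in spt6-7SA (25% called). BAS1, an activator of histidine and purine genes, fell in both, with a log2 fold change of -1.29 (edgeR adjusted p = 2.63e-05) in ck2ts and -0.56 (edgeR adjusted p = 0.00236) in spt6-7SA. Its partner PHO2 rose in both (log2 fold change 0.71, edgeR adjusted p = 0.000767 in ck2ts and log2 fold change 0.62, edgeR adjusted p = 0.00295 in spt6-7SA). ARG80 (log2 fold change -1.26, edgeR adjusted p = 0.000121) and LEU3 (log2 fold change -0.80, edgeR adjusted p = 0.000149) fell in ck2ts. LYS14 passed in neither mutant (log2 fold change -0.17, edgeR adjusted p = 0.0954 in ck2ts and log2 fold change 0.21, edgeR adjusted p = 0.0568 in spt6-7SA).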

How the data were processed

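Per the labels and the submitters' processing notes, RNA was depleted of ribosomal RNA, made into stranded libraries and read from 1 end at 50 bp, and the authors trimmed with Trimmomatic, aligned with BWA to R64 and counted with SAMtools (no versions are named). Per the labels, the deposited files hold unnormalised counts for every exon on both strands and for a 5' and a 3' part of unstated extent. Counts of 7553 exons were summed to 7126 genes. Both comparisons with WT and the direct one came from 1 edgeR 4.0.16 fit (quasi-likelihood, TMM, R 4.3.3) of all 6 libraries without a replicate block, after filterByExpr at a minimum count of 10, with Benjamini-Hochberg adjustment over all genes at 0.05. For antisense counts, sense totals and TMM factors set the scale. DESeq2 1.42.0 was an alternative. Between replicates, chi-square per degree of freedom was 112 to 196. Values per library are given for GCN4, the 2 largest passing changes per pathway and mutant, and the largest antisense changes. Counts cover all 41 genes, of which 1 is not reported here by itself, nor in the values by gene or the arginine count. Members and gene lists were chosen with earlier results of these data known. Sequences are from the RefSeq R64 genome.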

Additional observations from a re-analysis of the deposited data

How the results depend on the processing

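Leaving out 1 library at a time gave 10 to 22 calls among the 41 genes for sense reads in spt6-7SA against WT (20 with all libraries), 7 to 12 of them rises and 1 to 12 falls. Scaling by library sizes alone gave 4 falls there. For antisense reads in spt6-7SA against WT, leaving out a library gave 8 to 21 calls, 7 to 16 rises and 1 to 5 falls, DESeq2 gave 2 falls, and leaving out genes within 200 bp of an opposite-strand gene gave 3. In ck2ts against WT, antisense rises numbered 14 where the mean had to reach 50 reads, which tested 21 of the genes, and antisense falls 1 to 2 without single libraries. Between the mutants, antisense rises numbered 6 with TMM factors of the antisense counts and 2 to 4 without single libraries. Antisense against sense gave 8 to 16 calls in spt6-7SA without single libraries, 7 to 14 above and 1 to 2 below, and 0 to 1 below in ck2ts. One gene changed sign, ILV6 antisense in ck2ts, at a log2 fold change of -0.15 with TMM of the antisense counts.

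Same-numbered replicates deviated together (correlations of 0.315, 0.274 and 0.389 between strains), but the labels do not say that a number marks a shared culture or day. A replicate block gave 33 sense calls in ck2ts and 28 in spt6-7SA against WT, 34 between the mutants, 24, 16 and 20 antisense calls, and 26 calls in spt6-7SA among the 35 other amino acid genes (16 without it). For the 3' against 5' parts the block gave 4 calls in each mutant, 3 up and 1 down. Scaling these parts by sense library sizes, chosen after seeing the data, called 0. DESeq2 called 31, 24 and 33 genes on the sense strand and 22, 12 and 17 on the antisense strand. Low antisense counts limit what can be said of genes such as ARG3, which had too few reads for a test.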
